A study of Mus musculus with 9 samples.

Results

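Ptgs2 and other genes of prostaglandin synthesis, breakdown and reception were examined in ROC6, a murine oral squamous cell line, after knockout of Csmd3. The set was named by symbol and held 10 genes. Of these, 7 had exactly 1 row among the 15446 uniquely named genes of the expression table: Pla2g4a, Ptgs1, Ptgs2, Ptges, Ptges2, Ptgis and Ptgr1. Ptges3, Hpgd and Ptger4 had no row and were unmeasured here, which says nothing of their expression. The 9 libraries formed 3 groups of 3, labelled as Csmd3 knockout with guide 1, Csmd3 knockout with guide 2, and wild-type control. The series text describes the knockouts as clones, so each appears to be 1 clone. All groups were the same line grown in the same medium, and what the control cells received in place of a guide is not given in the sources used here.

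Prostaglandins are made in steps. Cytosolic phospholipase A2, encoded by Pla2g4a, frees arachidonic acid from membranes. The cyclooxygenases, Ptgs1 and Ptgs2, convert it to the unstable intermediate PGH2, and Ptgs1 is usually described as the constitutive and Ptgs2 as the inducible form. Terminal synthases turn PGH2 into single products: Ptges, Ptges2 and Ptges3 are PGE2 synthases, and Ptgis makes prostacyclin. Hpgd and Ptgr1 inactivate prostaglandins, and Ptger4 is a PGE2 receptor coupled to cAMP. In squamous epithelium and its tumours, Ptgs2 is best known as a gene induced by growth factors, cytokines and wounding, and as the target of anti-inflammatory drugs.

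Promoter windows from RefSeq (GRCm38.p6), from 250 bases before to 50 bases after the annotated start, were found for 9 of the 10 genes, all but Ptgis. Those of Ptgs2, Ptgs1 and Ptges are shown because both cyclooxygenases were higher, and Ptges lower, in both knockouts. Capitals mark matches on either strand to C/EBP (TTGCNNAA), the CRE core (TGACG), the E-box (CACGTG), AP-1 (TGANTCA), the GC box (GGGCGG) or the TATA box (TATAAA).
Ptgs2, chr1:150099781-150100080, plus strand: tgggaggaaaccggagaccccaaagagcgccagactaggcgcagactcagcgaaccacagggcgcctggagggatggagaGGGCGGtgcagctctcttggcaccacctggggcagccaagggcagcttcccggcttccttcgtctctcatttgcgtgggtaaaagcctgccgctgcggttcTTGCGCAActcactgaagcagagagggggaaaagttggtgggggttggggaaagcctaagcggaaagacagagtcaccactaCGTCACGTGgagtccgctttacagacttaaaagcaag
Ptgs1, chr2:36230176-36230475, plus strand: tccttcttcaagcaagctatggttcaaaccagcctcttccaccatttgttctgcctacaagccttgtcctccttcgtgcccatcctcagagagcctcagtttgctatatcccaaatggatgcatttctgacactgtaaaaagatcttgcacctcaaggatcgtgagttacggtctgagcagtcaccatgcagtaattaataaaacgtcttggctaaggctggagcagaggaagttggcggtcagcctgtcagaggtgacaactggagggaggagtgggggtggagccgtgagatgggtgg
Ptges, chr2:30903248-30903547, minus strand: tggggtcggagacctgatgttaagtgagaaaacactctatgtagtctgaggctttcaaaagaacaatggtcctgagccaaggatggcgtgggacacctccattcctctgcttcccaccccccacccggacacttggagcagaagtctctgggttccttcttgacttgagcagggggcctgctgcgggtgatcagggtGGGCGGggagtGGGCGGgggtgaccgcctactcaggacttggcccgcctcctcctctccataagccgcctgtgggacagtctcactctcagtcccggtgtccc

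The Ptgs2 window held a C/EBP match from -69 to -62 of the start, a GC box from -170 to -165, and a CRE core from 14 to 18 whose last 2 bases are the first 2 of an E-box from 17 to 22. Over all 32851 windows in the table, 10.8% held the C/EBP letters, 20.8% the CRE core, 7.15% the E-box and 35.7% the GC box. The Ptgs1 window held none of the 6 motifs, and the Ptges window held 2 GC boxes and no other match. The AP-1 letters, present in 7.81% of windows, were in none of these 3, nor were the TATA letters, present in 13.6%. An NF-kB consensus was found in 8.46% of all windows and in none of these 3. These matches are descriptions of the sequence within the window.

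Expression was given as FPKM, fragments scaled to transcript length and to the mapped total, which allows levels of different genes to be set side by side. Libraries summed to 162625 to 168620 FPKM over the genes with 1 row. Read depth is unknown, so counting error cannot be given. Tests used the 6965 genes that averaged at least 1 FPKM over the 9 libraries, on the log2(FPKM + 1) scale, where a difference understates the change of low genes. In 15441 of the 15446 rows both knockouts were above, or both below, the control by their means, so a shared direction against the control is a property of the table. Nothing says that the libraries of a group came from separate cultures, so errors and p-values cover the spread among libraries, possibly a technical one. Csmd3 was not analysed here, which leaves the labels of the knockouts unchecked.

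The set was selected on measured values: it was built around Ptgs2, chosen by its FPKM in both knockouts against the control, where it was among the largest shared increases. Differences of the 7 genes from the control are therefore given as a description with no test, while the comparison of guide 2 with guide 1, which the choice did not use, was tested. Of the 7, 6 passed the filter of 1 FPKM, each with every group mean above it. Ptgis did not: it was listed at 0 in 6 of 9 libraries and at 0.0220, 0.0321 and 0.0138 FPKM in 1 library each of guide 1, guide 2 and control.

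Among the 6 members that passed the filter, the plainest pattern was a split by step. Other genes of these steps, given below, did not all share it. Both cyclooxygenases and Pla2g4a were higher in all 6 knockout libraries than in any control, and both measured PGE2 synthases and Ptgr1 were lower in all 6. Among all tested genes, 24.7% lay above the controls in this way and 29.0% below, and nothing is read from the counts of 3 and 3, because the choice used this contrast. The summed FPKM of Ptgs1 and Ptgs2 over that of Ptges and Ptges2 was 0.590 ± 0.114 (SD, n = 3) for the control, 6.94 ± 0.692 for guide 1 and 8.20 ± 1.58 for guide 2. The control thus had less cyclooxygenase mRNA per length than Ptges and Ptges2 together, and both knockouts had several times more. Ptges3 had no row, so this does not cover all PGE2 synthase mRNA. In bulk RNA, a change in the share of cells that express a gene and a change in its level per cell cannot be told apart.

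**Figure D1:**
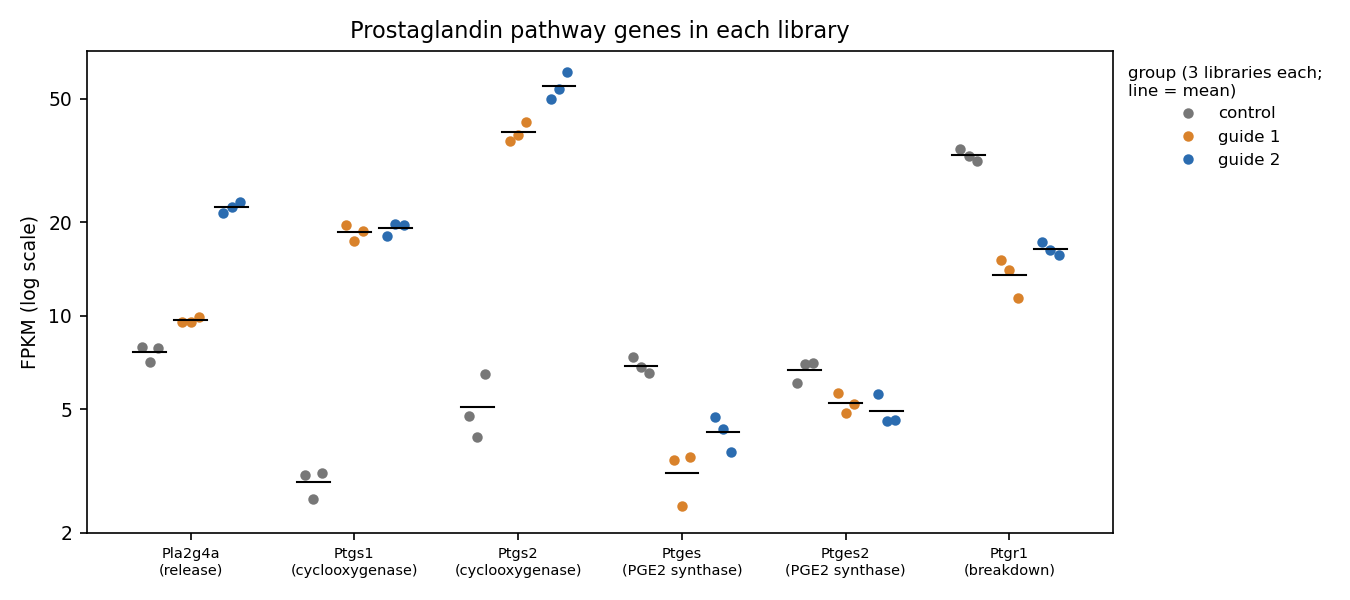
FPKM on a log axis for the 6 genes that passed the filter, with 1 point per library and a line at the mean of each group of 3. Pla2g4a, Ptgs1 and Ptgs2 lie above the control in both knockouts and Ptges, Ptges2 and Ptgr1 below it, and guide 1 and guide 2 overlap for Ptgs1 and Ptges2.

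The control libraries held 4.75, 4.07 and 6.49 FPKM of Ptgs2, the inducible cyclooxygenase, the guide 1 libraries 36.7, 38.2 and 42.0, and the guide 2 libraries 49.9, 53.9 and 60.8. The 3 groups did not overlap, and the order was control, guide 1, guide 2. The mean was 7.64 times the control with guide 1 and 10.8 times with guide 2, or log2 differences of 2.73 and 3.21 (SE 0.128 for each). Between the knockouts Ptgs2 was higher with guide 2 by 0.48 log2 units (SE 0.128, 95% interval 0.20 to 0.77, limma adjusted p = 0.00895), with all 3 guide 2 libraries above all 3 of guide 1. Over all tested genes, 54.5% differed between the guides at an adjusted p under 0.05, 31.2% higher and 23.3% lower with guide 2.

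Ptgs1, the other cyclooxygenase, stood at 3.07, 2.57 and 3.12 FPKM in the control, 19.7, 17.4 and 18.8 with guide 1, and 18.1, 19.8 and 19.6 with guide 2. Its mean was 6.38 and 6.56 times the control, so the form usually called constitutive was also several times the control. The knockouts overlapped, with a difference of 0.04 log2 units (95% interval -0.12 to 0.20, limma adjusted p = 0.671). An interval of this width leaves room for a difference of up to 0.20 log2 units. In the GENCODE vM21 annotation, 148 of the 3884 exon bases of Ptgs1 lie opposite exons of Gm43621. Because it is not given whether strand was used in counting, reads from that stretch cannot be assigned.

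Within each library Ptgs2 was the more abundant cyclooxygenase. It made up 60.8%, 61.3% and 67.5% of the summed cyclooxygenase FPKM in the control, 65.1%, 68.7% and 69.1% with guide 1, and 73.4%, 73.2% and 75.6% with guide 2. The control and guide 1 ranges overlapped, and all guide 2 libraries lay above both. The ratio of Ptgs2 to Ptgs1 was 2.86 ± 0.210 with guide 2 and 2.10 ± 0.203 with guide 1 (SD, n = 3; exact permutation test, two-sided p = 0.1, adjusted p = 0.133 over 8 ratios and sums), where 0.1 is the smallest p that 3 libraries against 3 allow. Total cyclooxygenase FPKM was 8.02 ± 1.50 in the control, 57.6 ± 2.78 for guide 1 and 74.0 ± 6.25 for guide 2.

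**Figure D2:**
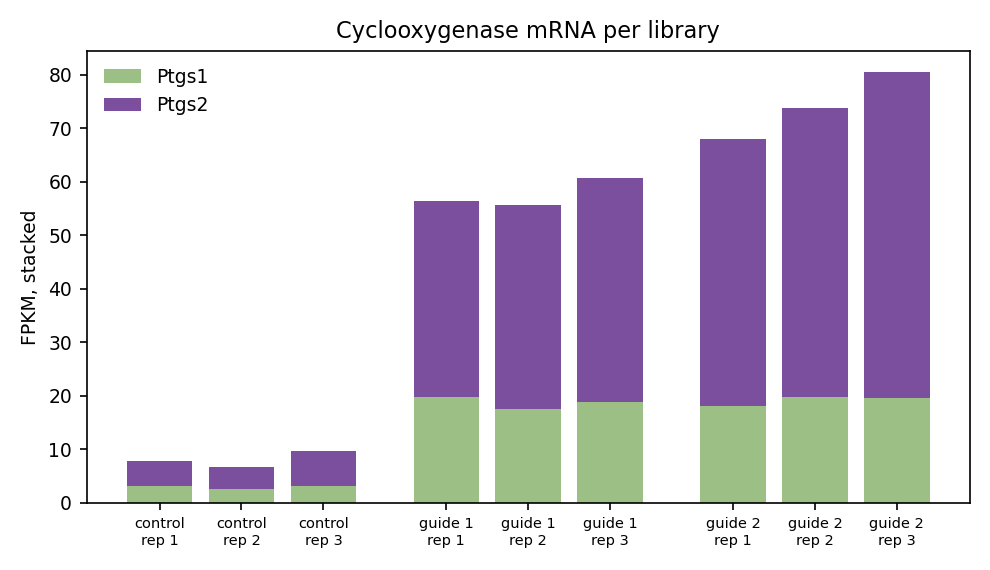
FPKM of Ptgs1 and Ptgs2 stacked for each of the 9 libraries. The Ptgs1 part is of like height in the 6 knockout libraries, between 17.4 and 19.8 FPKM, and the Ptgs2 part is taller with guide 2.

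Pla2g4a, which supplies the substrate, set the knockouts farther apart than any other tested member. It stood at 7.96, 7.09 and 7.88 FPKM in the control, 9.58, 9.57 and 9.88 with guide 1, and 21.5, 22.5 and 23.2 with guide 2. Guide 1 was 1.27 times and guide 2 was 2.93 times the control, and no groups overlapped. The difference between guides was 1.13 log2 units (SE 0.0540, 95% interval 1.01 to 1.25, limma adjusted p = 7.53e-08). In GENCODE vM21 (GRCm38) Pla2g4a is the neighbouring protein-coding gene of Ptgs2, with 0 protein-coding genes between them. The ratio of Ptgs2 to Pla2g4a was 0.665 ± 0.138 in the control, 4.02 ± 0.211 for guide 1 and 2.45 ± 0.159 for guide 2 (SD, n = 3). The part of their shared position in these levels was not tested.

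Ptgs2os, a noncoding transcript on the opposite strand, starts upstream of Ptgs2 in the same annotation, with 67 bases between both starts, and shares no exon bases with it. It was looked up after the values of Ptgs2 were known. It stood at 0.424, 0.302 and 0.353 FPKM in the control, 0.646, 0.578 and 0.666 with guide 1, and 1.10, 1.39 and 1.32 with guide 2. The groups did not overlap and their order was that of Ptgs2, but the mean over libraries, 0.753 FPKM, was under the filter, so it was not tested. Ptgs2 was 14.3 ± 3.67 times as abundant as Ptgs2os in the control, 62.0 ± 4.69 times with guide 1 and 43.5 ± 4.04 times with guide 2 (SD, n = 3).

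Ptges, the inducible microsomal PGE2 synthase that is often coupled to Ptgs2, was lower in both knockouts. Its level was 7.34, 6.87 and 6.52 FPKM in the control, 3.43, 2.44 and 3.50 with guide 1, and 4.73, 4.33 and 3.65 with guide 2. The knockout means were 0.452 and 0.613 times the control, on a scale of low FPKM values. The lowest guide 2 library lay just above the highest of guide 1, and the difference of 0.35 log2 units between guides passed the test (SE 0.111, limma adjusted p = 0.0222). This call was lost without guide 1 replicate 2 (0.22 log2 units, limma adjusted p = 0.0735), guide 2 replicate 1 (0.0809) or guide 2 replicate 2 (0.0609), and with no filter on low values (0.0723).

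Ptges2, another membrane-associated PGE2 synthase, was lower in both knockouts as well. It stood at 6.08, 6.98 and 7.06 FPKM in the control, 5.63, 4.87 and 5.21 with guide 1, and 5.59, 4.59 and 4.61 with guide 2. Both knockouts lay below the control, at 0.780 and 0.735 times its mean, and overlapped each other, with a difference of -0.08 log2 units between them (95% interval -0.26 to 0.11, limma adjusted p = 0.481). The ratio of Ptges to Ptges2 was 1.04 ± 0.150 in the control, 0.595 ± 0.0868 for guide 1 and 0.860 ± 0.0777 for guide 2.

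Ptgr1, a reductase that completes the inactivation begun by Hpgd and also acts on leukotriene B4 and lipid aldehydes, was the most abundant member in the control and lower in both knockouts. It stood at 34.4, 32.8 and 31.6 FPKM in the control, 15.2, 14.1 and 11.4 with guide 1, and 17.2, 16.3 and 15.7 with guide 2. The knockout means were 0.412 and 0.498 times the control. The knockout ranges did not overlap, and guide 2 was higher by 0.27 log2 units (SE 0.0875, limma adjusted p = 0.0252). This call was lost without guide 1 replicate 3 (0.16 log2 units, limma adjusted p = 0.0659), guide 2 replicate 1 (0.0802) or guide 2 replicate 2 (0.0553), after trimmed mean rescaling (0.0508) and with no filter on low values (0.0735).

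Ordered by FPKM, the control ran Ptgr1, Pla2g4a, Ptges, Ptges2, Ptgs2 and Ptgs1 from highest to lowest, with Pla2g4a and Ptges, Ptges and Ptges2, and Ptges2 and Ptgs2 overlapping as neighbours. With guide 1 the order was Ptgs2, Ptgs1, Ptgr1, Pla2g4a, Ptges2 and Ptges, with no neighbours overlapping. With guide 2 it was Ptgs2, Pla2g4a, Ptgs1, Ptgr1, Ptges2 and Ptges, and the last pair overlapped. Ptgs2 thus moved from the fifth place to the first. Between the guides, 4 of the 6 tested members differed, Pla2g4a, Ptgs2, Ptges and Ptgr1, all higher with guide 2, where 54.5% of all tested genes differed and 31.2% were higher. The calls of Ptges and Ptgr1 were lost under the alternatives given with them. Pla2g4a and Ptgs2 passed under each of the 17 alternatives run, where their highest limma adjusted p was 2.28e-06 and 0.0389.

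**Figure D3:**
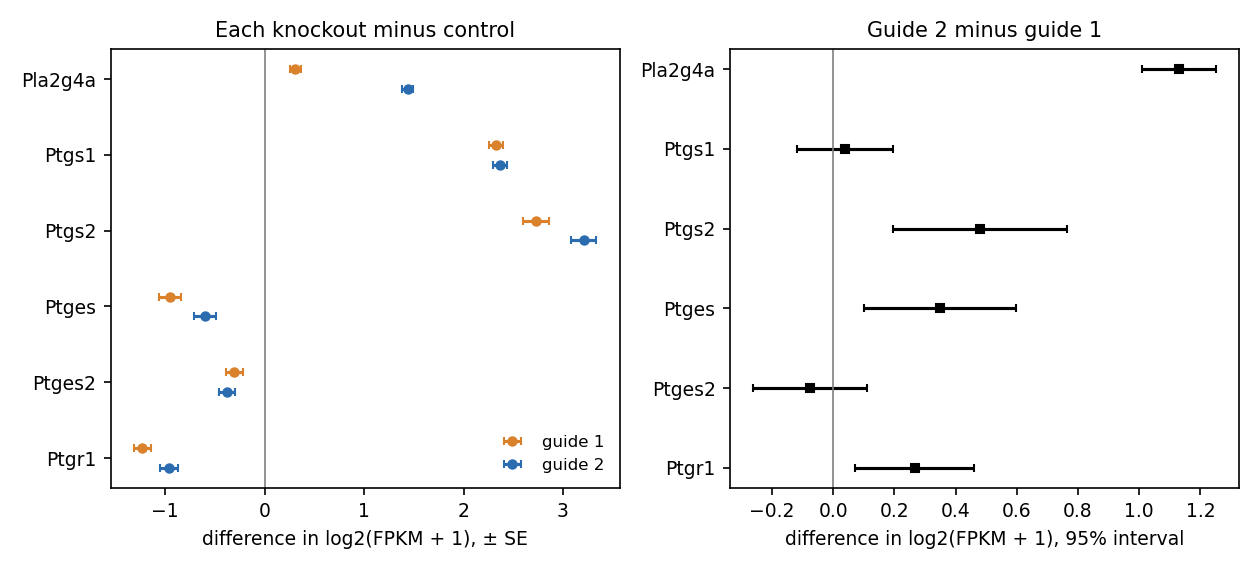
Differences in log2(FPKM + 1) for the 6 tested genes. The left panel shows each knockout minus the control with its SE, as a description, and the right panel guide 2 minus guide 1 with its 95% interval, which lies above 0 for Pla2g4a, Ptgs2, Ptges and Ptgr1 and spans 0 for Ptgs1 and Ptges2.

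Further genes of the pathway were taken from lists by function, and tests against the control are given for them. Of 134 listed symbols 70 had a row and 49 were tested. A few genes were listed under both an older and a newer symbol, such as Gpr44 and Ptgdr2. Counts of what was listed, here and below, are therefore counts of symbols. With guide 1, 25 rose and 14 fell (median log2 difference 0.20, against -0.04 over all tested genes). Of all tested genes 68.1% were called, 30.2% higher and 37.9% lower. With guide 2, 28 rose and 11 fell (median 0.34, against -0.03), and of all genes 65.4% were called, 31.9% higher and 33.5% lower. With both guides 24 rose and 9 fell, where 22.6% and 26.2% of all genes did. Pde4a, Arrb1 and Nfatc1 were under 1 FPKM in the control and passed the filter only through the knockouts. Without these 3, 46 genes were tested: 22 rose and 14 fell with guide 1 (median 0.06), 25 rose and 11 fell with guide 2 (median 0.27), and 21 rose and 9 fell with both. The median with guide 1 was thus lower without them. The knockouts share their controls, so these counts are not independent. A shared direction was also nearly fixed beforehand, as 15441 of the 15446 uniquely named genes had it. The counts with both guides therefore cannot show that the guides agree. Shares of all genes were not recomputed for the stricter rule, so the counts over 46 genes have no matching background.

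Among genes of arachidonic acid release, 6 of 19 listed were tested, of which 2 rose and 1 fell with both guides. Anxa1, annexin A1, an anti-inflammatory protein first described as a phospholipase A2 inhibitor, rose from 90.1 ± 0.969 FPKM to 435 ± 9.95 in guide 1 libraries and 148 ± 4.44 in guide 2 libraries (SD, n = 3; log2 differences 2.26 and 0.71, limma adjusted p = 3.34e-11 and 1.09e-07). It was lower with guide 2 than with guide 1 by 1.55 log2 units, the largest such difference in this list and opposite in sign to that of Pla2g4a. Acsl4, which activates arachidonic acid for return to phospholipids, fell from 45.3 ± 3.91 to 21.5 ± 0.850 and 18.2 ± 0.954 FPKM. Pla2g12a, a secreted phospholipase A2 named here after its values were seen, stood at 4.86 ± 0.180 FPKM in the control and 5.19 ± 0.246 with guide 1, and rose to 13.3 ± 0.932 with guide 2. The ratio of Pla2g4a to Pla2g12a lay between 1.49 and 1.99 in all 9 libraries.

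Of the other terminal synthases and carbonyl reductases, 3 of 12 were tested, and 2 fell with both guides. The remaining gene, Akr1b8, was named after its values were seen. It stood at 26.1 ± 2.77 FPKM in the control and 26.3 ± 1.41 with guide 1, and rose to 46.8 ± 0.328 with guide 2. Cbr3, a carbonyl reductase, fell from 13.1 ± 1.11 FPKM to 6.12 ± 1.46 in guide 1 libraries and 2.03 ± 0.452 in guide 2 libraries, and Cbr1, a related enzyme that reduces PGE2, from 7.29 ± 0.420 to 4.38 ± 0.500 and 5.00 ± 0.385. Ptgds, Hpgds and Tbxas1, which make PGD2 and thromboxane, had no row. In breakdown and transport, 3 of 8 were tested. Ptgr2, also named after its values were seen, passed with neither guide (limma adjusted p = 0.111 and 0.822). Abcc4, an exporter of prostaglandins, rose from 4.64 ± 0.129 FPKM to 7.12 ± 0.285 and 10.6 ± 0.689 (log2 differences 0.53 and 1.04, limma adjusted p = 1.61e-05 and 1.19e-07). Ptgr3, a further prostaglandin reductase, stood at 11.9 ± 0.411 FPKM in the control and 11.6 ± 0.843 with guide 1, and fell to 7.16 ± 0.335 with guide 2 (log2 difference between guides -0.62, limma adjusted p = 1.19e-05).

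Reception could be seen only in part. Of 10 listed receptor symbols 4 had a row, and Ptger2, Ptgdr2 and Tbxa2r stood at group means of at most 0.0378 FPKM. Ptgfrn, a membrane protein that binds the PGF2 alpha receptor and lowers its ligand binding, was the 1 tested gene and rose from 6.62 ± 0.178 to 9.37 ± 0.561 and 12.1 ± 0.534 FPKM. Downstream, in the list of cAMP signalling, 9 of 21 passed the filter, of which Pde4a and Arrb1 did so only through the knockouts. Of the other 7, 4 rose and 2 fell with both guides. Pde4a, a cAMP phosphodiesterase, stood at 0.581 ± 0.0307 FPKM in the control, 3.49 ± 0.272 for guide 1 and 1.26 ± 0.145 for guide 2, and Arrb1, a beta-arrestin, at 0.189 ± 0.0927, 1.89 ± 0.197 and 1.09 ± 0.0761, given as values only. In the nuclear receptor list 4 of 7 were tested. Fabp5, a fatty acid carrier of keratinocytes, fell from 93.6 ± 2.65 to 44.0 ± 2.20 and 40.8 ± 3.48 FPKM, Rxra, a partner of the PPARs, fell from 15.1 ± 0.738 to 9.05 ± 0.757 and 8.11 ± 0.523, and Pparg rose from 1.38 ± 0.0312 to 1.82 ± 0.204 and 3.26 ± 0.326. Of the lipoxygenase and epoxygenase branches 2 of 20 were tested, Mgst2 and Mgst3, and with guide 2 neither passed (limma adjusted p = 0.173 and 0.551). Mgst2, a leukotriene C4-forming transferase, fell with guide 1 by 0.81 log2 units and was 0.65 higher with guide 2 than with guide 1. Mgst3, a related transferase, went the other way: it rose with guide 1 by 0.65 log2 units (limma adjusted p = 0.000346), and guide 2 differed from guide 1 by -0.58 (limma adjusted p = 0.00122).

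Transcription factors known to act on the Ptgs2 promoter went both ways. Of 18 listed, 11 passed the filter, Nfatc1 only through the knockouts. Of the other 10, 5 rose and 2 fell with both guides. The 2 that fell were the C/EBP factors Cebpa and Cebpd, while Cebpb, also listed, was not among the uniquely named genes. Cebpa fell from 18.5 ± 2.02 FPKM to 1.43 ± 0.235 in guide 1 libraries and 3.10 ± 0.152 in guide 2 libraries (log2 differences -3.00 and -2.24, limma adjusted p = 1.07e-09 and 1.14e-08), and Cebpd from 68.0 ± 2.00 to 17.9 ± 0.762 and 43.5 ± 1.76 (-1.87 and -0.63, limma adjusted p = 4.5e-10 and 1.37e-06). Cebpd also had the largest difference between guides in this list, 1.24 log2 units higher with guide 2. Among factors of Ptgs2 mRNA stability, 6 of 13 were tested, and 3 rose with both guides. Hnrnpd, Rbm3 and Mapk14 did not pass with either guide (lowest limma adjusted p = 0.0828, for Rbm3 with guide 1). Zfp36, or tristetraprolin, which promotes decay of mRNAs with AU-rich elements such as that of Ptgs2, rose from 4.20 ± 0.0346 FPKM to 6.78 ± 0.101 and 5.15 ± 0.566, and Khsrp, another decay factor, from 63.2 ± 2.63 to 91.6 ± 2.02 and 72.7 ± 3.97. In the list of inhibitors and glucocorticoid targets 4 of 6 were tested and 3 rose with both guides. Nfkbia, the NF-kB inhibitor, rose from 13.3 ± 1.27 to 30.3 ± 1.21 and 26.9 ± 0.463 FPKM, and Dusp1, a MAPK phosphatase, from 32.7 ± 3.19 to 81.9 ± 4.99 and 40.4 ± 1.79.

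**Figure D4:**
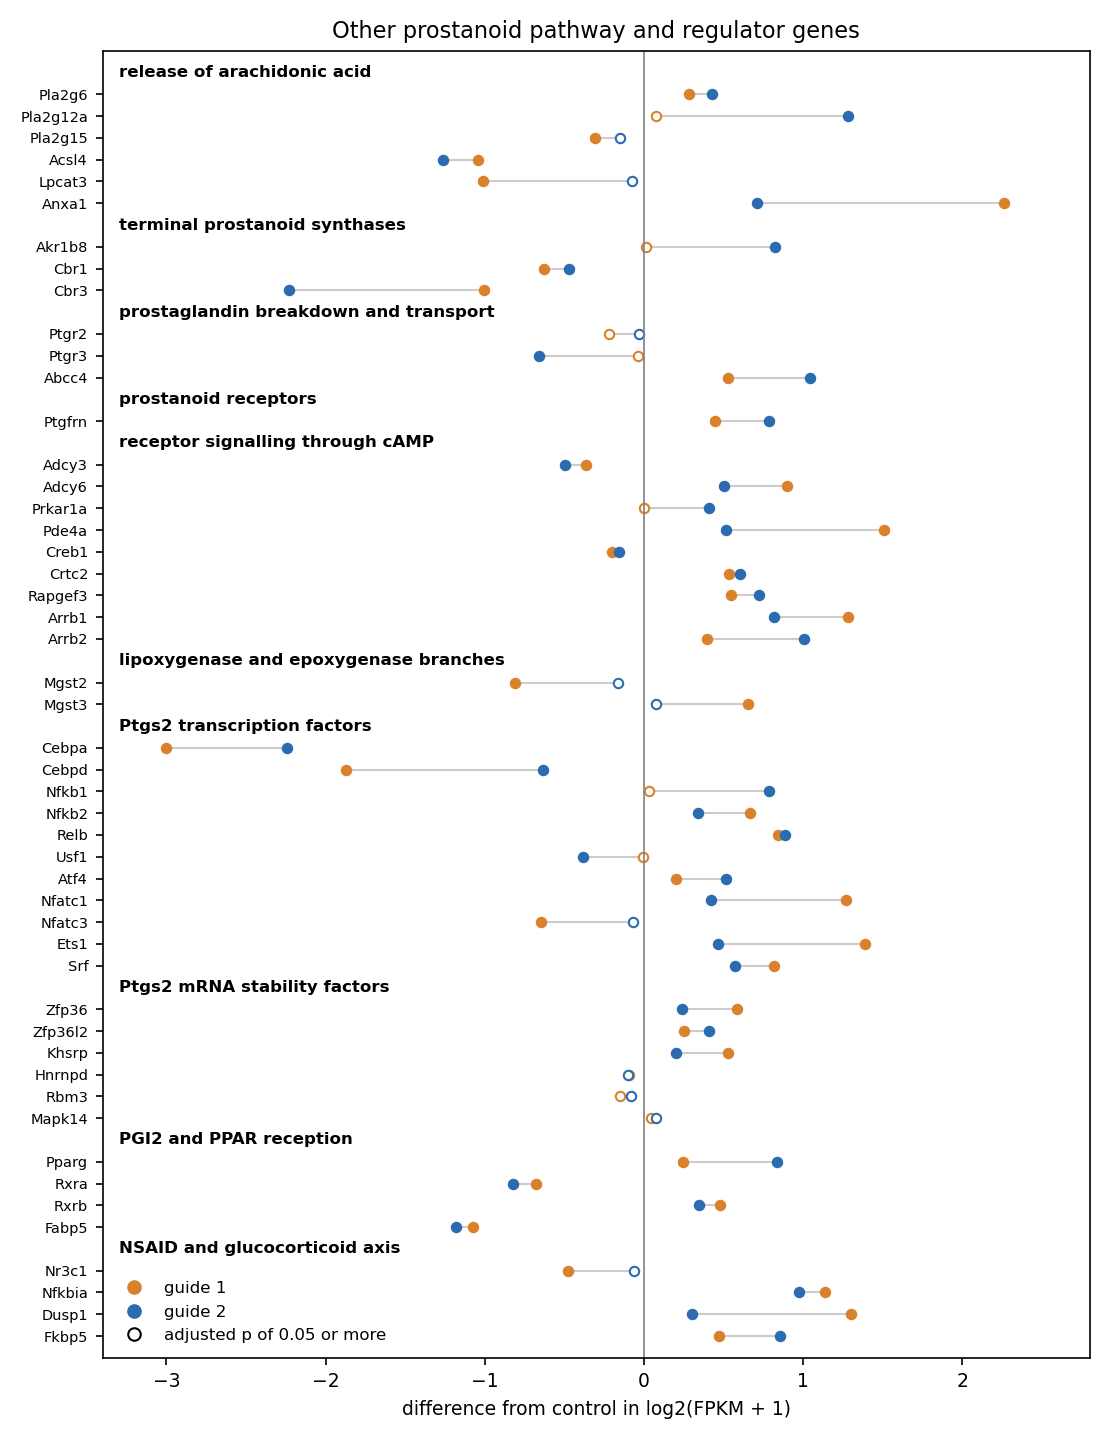
Difference from control in log2(FPKM + 1) for the 49 tested genes that are not members, by list, with guide 1 and guide 2 joined by a line and open circles where the limma adjusted p was 0.05 or more. Anxa1 has the largest positive difference with guide 1, at 2.26, and Cebpa has the largest negative one with each guide, at -3.00 and -2.24.

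Genes whose pattern was most like that of Ptgs2 were found by the mean absolute deviation over the 6 knockout libraries. It was taken between their difference from their own control mean in log2(FPKM + 1) and that of Ptgs2. Among genes averaging at least 5 FPKM the 5 nearest were Myl9, a myosin regulatory light chain (deviation 0.17 log2 units), Cav1, the caveola coat protein (0.31), Igfbp3, an IGF-binding protein (0.33), Ntn1, the secreted guidance protein netrin 1 (0.40), and H1f2, a linker histone (0.44). Myl9 stood at 19.2 FPKM in the control, 135 for guide 1 and 153 for guide 2, and Igfbp3 at 0.866, 10.1 and 11.1. The filter of 5 FPKM used the mean over all libraries. Igfbp3, Ntn1 and H1f2, at 0.866, 1.16 and 2.86 FPKM in the control, passed it only through the knockouts. On this log scale the rise of genes so low in the control is understated, so their likeness in fold may be less. Likeness here was measured over 2 knockouts that share 1 control.

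Other measures were looked up too, and not all of them moved with these genes. Ptgs2 is an immediate early gene, and Egr1, another, stood at 1.84 to 2.94 FPKM in the control, 6.16 to 6.73 with guide 1 and 13.4 to 14.9 with guide 2, the same order of groups. The part of Egr1 in the Ptgs2 result was not tested. Fos was looked up as well and was not among the uniquely named genes. Of 10 macrophage and leukocyte markers 2 had a row, and their sum was 0.473 to 0.875 FPKM in the control, 1.20 to 1.54 with guide 1 and 1.81 to 2.67 with guide 2, nearly all of it Cd68, while Lyz2 was at 0 in all 3 controls. Of 11 fibroblast markers 3 had a row, with sums of 3.70 to 3.998, 8.81 to 12.2 and 13.8 to 14.6 FPKM. These 3 did not move together. Twist2 had group means of 2.51, 9.25 and 5.60 FPKM for control, guide 1 and guide 2. Those of Postn, taken likewise, were 1.30, 1.61 and 7.83, and those of Col1a2 0.0139, 0.0307 and 0.827. Of 7 endothelial markers 2 had a row, with sums of 0 to 0.0150 FPKM in the control, 0.665 to 0.714 for guide 1 and 0.0454 to 0.115 for guide 2, and 0 of 7 mast cell markers had one. The part of other cell types in the results was not tested. Of 14 squamous markers 5 had a row, with sums of 76.7 to 84.9 FPKM in the control, 103 to 111 for guide 1 and 82.5 to 87.8 for guide 2, nearly all of it Perp. By group means Perp, Sfn and Krt16 lay above the control in both knockouts, and Itgb4 and Krt17 below it. Krt16 and Krt17 had group means of at most 0.168 and 0.125 FPKM, so nothing is read from their direction. Itgb4 averaged 0.843 FPKM over the control libraries, against 0.309 for guide 1 and 0.612 for guide 2. Krt5, Krt14 and Trp63 had no row, so the squamous label could not be checked against them.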

How the data were processed

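Stranded paired-end libraries of polyadenylated RNA from 9 samples were sequenced, per the labels' protocols. The deposited values are FPKM per gene and library, per the file headers, and HISAT2, StringTie, cutadapt and FastQC are listed, with no roles, in the submitters' processing notes. No tool version, genome build or annotation was given in the sources used here. Of 15620 rows, 174 sharing 62 symbols were left out. Samples were grouped by title. There were 0 other columns holding per-sample values.

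All 9 libraries entered 1 linear model of log2(FPKM + 1), fitted with limma 3.58.1 (R 4.3.3). The prior variance followed the mean, and p-values were adjusted by Benjamini-Hochberg over the 6965 genes averaging at least 1 FPKM. Genes were called at an adjusted p under 0.05. Ratios were tested with SciPy 1.17.1. The fit was tested on simulated data.

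Members and gene lists were chosen with earlier results of these data known. All members with a row were described. Of each list, the 2 genes called with both guides with the largest mean difference were named, with the 1 differing most between guides. Symbols were matched to RefSeq promoter windows and GENCODE vM21. Alternatives were leaving out each library, a replicate block, quantile normalization, rescaling by trimmed means (30% off each end), a pseudocount of 0.1, no filter on low values or 1 at 5 FPKM, a constant prior variance, and fits to the compared libraries alone.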

Additional observations from a re-analysis of the deposited data

Results flagged for a closer look

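For 4 genes the effect of knockout differed between guide 1 and guide 2 by the test of guide 2 against guide 1, in which the control cancels. Pla2g4a was 1.13 log2 units higher with guide 2 (limma adjusted p = 7.53e-08), and this is the clearest of the 4. Ptgs2 was 0.48 higher (limma adjusted p = 0.00895), Ptges 0.35 higher (limma adjusted p = 0.0222) and Ptgr1 0.27 higher (limma adjusted p = 0.0252). Because 54.5% of all tested genes differed between the guides, such a difference is common in these libraries. Guide and clone cannot be told apart.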

How the results depend on the processing

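Of 408 comparisons of a result with an alternative, 392 held: tested differences kept their direction and side of the threshold, counts stayed within 1.5 times, and differences given with no test kept their sign and moved by less than the SD between replicates. Of the rest, 6 untested differences moved by more than that SD, 9 tested ones lost their call and 1 changed sign. Many of the 392 could not have failed, because an untested difference rests on the means of the compared groups alone. The filters, the replicate block, the prior variance and fits to the compared libraries could not move it. Nor could leaving out a library of the group not compared. Leaving out list genes with any group mean under 1 FPKM was chosen after seeing the data. With a pseudocount of 0.1 the differences from control were larger: with guide 1, 2.64 for Ptgs1, 2.93 for Ptgs2 and -1.14 for Ptges, and with guide 2, 1.54 for Pla2g4a, 2.68 for Ptgs1 and 3.42 for Ptgs2. With no filter the difference between guides no longer passed for Ptges (0.35, limma adjusted p = 0.0723) or Ptgr1 (0.27, limma adjusted p = 0.0735). More genes entered the adjustment there, and the SE also rose, from 0.111 to 0.120 for Ptges and 0.0875 to 0.0923 for Ptgr1. Their separate parts were not tested. With trimmed mean rescaling Ptgr1 no longer passed (0.24, limma adjusted p = 0.0508), where the cause was not tested. Leaving out 1 library at a time gave differences between guides of 0.22 to 0.43 for Ptges, 0.16 to 0.35 for Ptgr1 and -0.0051 to 0.078 for Ptgs1, whose sign turned without guide 1 replicate 2 (-0.0051). With a filter of 5 FPKM, Ptges was no longer tested. The share of higher calls moved by under 10 percentage points with any scaling. Replicate numbers were not used as pairs. Correlations of the deviations of same-numbered libraries lay between -0.11 and 0.24, and a library correlated best with its own number in 9 of 18 comparisons. Between the knockouts they were 0.24, 0.022 and 0.21 for replicates 1, 2 and 3, and between knockout and control at most 0.056. Whether same-numbered knockout libraries were handled together was not tested. With the replicate block 3784 genes differed between guides, against 3793 without it, and no member's call changed. Unknown depth limits the low values.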
